A study of Mus musculus with 18 samples.

Results

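Wide H3K27ac domains are long stretches of chromatin in which acetylation of lysine 27 on histone H3 ran on for 10 kb or more. They were selected by joining the H3K27ac peaks of 4 ChIP-seq (chromatin immunoprecipitation) libraries wherever peaks shared at least 1 bp and keeping joined regions of at least 10 kb, whichever libraries had called them. This gave 1481 domains among 42199 joined regions, leaving 40718 narrower ones. The domains spanned 25.5 Mb, with a median width of 14000 bp (quartiles 11600 and 19200 bp) and a maximum of 76000 bp. At the edge of the choice, 52 domains were exactly 10000 bp wide and 62 regions just missed it at 9800 bp, with a peak in all 4 libraries in 25 and 26 of them. Width, covered length and the libraries that called a domain were used to choose the domains, so those values are a description and carry no test.

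The cells came from the bone marrow of adult C57BL6 mice, with no engineered allele or treatment named in the labels, and were male by the study's methods. Erythroblasts (ERY), the nucleated precursors of red cells, were sorted by low forward scatter and the surface proteins Ter119 and CD44. Immature megakaryocytes (iMK), which mature into the cells that release platelets, were sorted by CD41 and CD61 with no Ter119, Sca1 or cKit on their surface, and both sorts removed cells stained for lymphoid and myeloid surface proteins. Each cell type had 2 libraries for H3K27ac and 2 for H3K4me3, and the number of animals behind each was not given in the labels. Of 12 genes chosen as ERY markers all had an H3K27ac peak within 10 kb in both ERY libraries, against 3 in each iMK library. Of 12 iMK markers only 9 had one in each iMK library and 6 in each ERY library, and Itga2b, which encodes CD41, had none in iMK, so the term used below is the libraries labelled iMK. The marker loci of neutrophils were covered over 16.8% and 39.5% of their length in the libraries labelled iMK and over 0.463% and 0% in ERY, and those of monocytes and macrophages over 21.3% and 20.9% against 4.29% and 2.43%. All 8 neutrophil markers had a peak in iMK replicate 2 and 7 of 8 in iMK replicate 1.

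H3K27ac is placed by acetyltransferases at active promoters and enhancers, while trimethylation of lysine 4 (H3K4me3) marks mainly active promoters. Very long runs of H3K27ac usually join several enhancers, a promoter and part of a transcribed gene, and such stretches are known in many tissues to lie at genes that define the cell type. In erythroblasts the genes for globins, heme enzymes and the membrane skeleton are transcribed at very high rates under GATA1, TAL1 and KLF1, whereas ETS factors such as FLI1 in megakaryocytes and PU.1 in myeloid cells act at the genes of those lineages.

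To show what the sequence of such domains looks like, the 300 bases with most matches to a lineage factor's letters are given for the 2 widest ERY-alone and the 2 widest iMK-alone domains that hold a listed gene, in mm10 on the plus strand. ERY-alone means a peak in both ERY libraries and in neither library labelled iMK, and iMK-alone the opposite. In the first pair the capitals mark AGATAA or TGATAA, the letters of GATA factors, on either strand. The first pair lies downstream of Gfi1b, a repressor of erythroid and megakaryocytic cells (chr2:28598087-28598386, 17169 bp from its nearest transcription start site and outside protein-coding genes), and in an intron of Ank1, the gene of ankyrin, which ties the red cell membrane to its skeleton (chr8:23050262-23050561, 7848 bp from a start site).
Gfi1b stretch: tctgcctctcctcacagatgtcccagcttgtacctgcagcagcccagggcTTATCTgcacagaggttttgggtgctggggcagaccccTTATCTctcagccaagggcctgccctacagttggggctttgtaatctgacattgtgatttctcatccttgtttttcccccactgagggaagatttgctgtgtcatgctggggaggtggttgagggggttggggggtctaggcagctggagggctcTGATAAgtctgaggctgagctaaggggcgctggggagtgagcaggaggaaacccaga
Ank1 stretch: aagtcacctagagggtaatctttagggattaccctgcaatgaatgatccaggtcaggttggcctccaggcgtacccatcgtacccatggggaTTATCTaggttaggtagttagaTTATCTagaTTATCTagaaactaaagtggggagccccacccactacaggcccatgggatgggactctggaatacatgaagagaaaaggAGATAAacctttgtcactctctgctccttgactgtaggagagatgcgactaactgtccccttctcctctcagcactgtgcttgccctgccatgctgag
They hold 3 and 4 matches. Of 84380 windows of 300 bases that tile the 1481 domains, 25.6% hold at least 1 match, 0.698% at least 3 and 0.0948% at least 4. Each stretch was chosen as the richest of its domain and these windows were not, so the shares do not show the stretches to be unusual.

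In the second pair the capitals mark GAGGAA or ACTTCC, the letters of ETS factors and PU.1, on either strand, and matches may overlap. The stretches lie by Ncf1, an NADPH oxidase subunit of phagocytes (chr5:134234395-134234694, 4919 bp from a start site), and by Spi1, which encodes PU.1 itself (chr2:91080846-91081145, 1395 bp from a start site), both outside protein-coding genes.
Ncf1 stretch: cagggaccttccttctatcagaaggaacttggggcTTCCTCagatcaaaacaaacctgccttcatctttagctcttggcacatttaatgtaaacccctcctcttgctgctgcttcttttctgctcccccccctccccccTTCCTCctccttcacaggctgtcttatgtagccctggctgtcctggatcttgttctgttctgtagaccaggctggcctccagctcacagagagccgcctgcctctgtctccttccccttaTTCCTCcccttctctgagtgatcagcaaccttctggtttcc
Spi1 stretch: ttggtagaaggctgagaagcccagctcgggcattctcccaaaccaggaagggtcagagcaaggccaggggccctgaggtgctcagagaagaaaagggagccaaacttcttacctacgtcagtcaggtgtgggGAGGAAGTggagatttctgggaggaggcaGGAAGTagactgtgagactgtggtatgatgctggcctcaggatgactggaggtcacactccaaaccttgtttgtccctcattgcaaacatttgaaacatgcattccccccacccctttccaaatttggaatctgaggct
Each holds 3 matches, and 2.49% of the same windows hold 3 or more, while 37.7% hold at least 1. Here too the stretches were chosen for their matches and the windows were not. The promoter of Gfi1b from RefSeq (GRCm38.p6, chr2:28621933-28622232, minus strand) lies inside its domain and holds 1 GATA match, as 18.6% of 32851 RefSeq promoters of this length hold at least 1.
Gfi1b promoter: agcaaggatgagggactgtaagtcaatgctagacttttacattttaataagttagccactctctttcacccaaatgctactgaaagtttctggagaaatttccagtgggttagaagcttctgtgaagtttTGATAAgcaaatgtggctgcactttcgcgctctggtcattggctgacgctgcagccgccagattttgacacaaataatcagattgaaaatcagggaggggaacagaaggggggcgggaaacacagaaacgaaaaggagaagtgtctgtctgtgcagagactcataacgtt
The RefSeq promoter of Ncf1 holds no ETS or PU.1 match, which 43.4% of those promoters do. Promoters of Ank1 and Spi1 were not used here. These matches are letters in a window and were not tested as binding sites.

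Wide domains were mostly longer in erythroblasts. All 4 libraries had a peak in 848 domains (57.3%; 19.2% of all 42199 joined regions did). Both ERY libraries alone had one in 489 (33.0%, against 16.5% of all regions), and both libraries labelled iMK alone had one in 56 (3.78%, against 21.7%). The other 88 (5.94%, against 42.6%) had mixed calls, of which 81 had both ERY libraries and 1 library labelled iMK. Even in shared domains the peaks were longer in ERY: the median covered length of the 848 in ERY replicates 1 and 2 was 13600 and 13000 bp, whereas iMK replicates 1 and 2 had 4000 and 4600 bp. Both ERY libraries covered more bases than both labelled iMK in 1315 of the 1481 domains (26.9% of all regions), the reverse held in 120 (25.8% of all regions), and the cell types overlapped in 46. This direction is in part set by the choice, because peaks of 10 kb or more were more frequent in ERY, and fewer marked cells cannot be told apart from a weaker mark per cell.

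**Figure D1:**
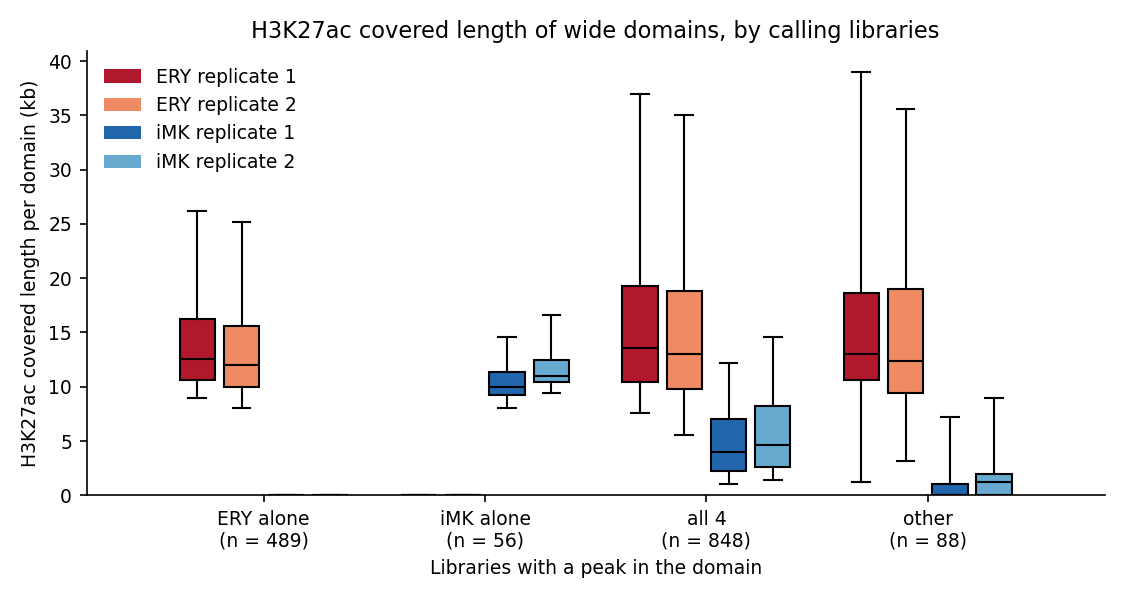
H3K27ac covered length per wide domain (kb) in each of the 4 H3K27ac libraries, for domains called in ERY alone, in iMK alone, in all 4 libraries and in other combinations. Boxes give quartiles with the median and whiskers the central 90% of domains; in domains called in all 4 the ERY boxes (medians 13.6 and 13 kb) stand above the iMK boxes (4 and 4.6 kb).

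ERY replicates 1 and 2 had 998 and 837 single peaks of at least 10 kb, and the libraries labelled iMK had 32 and 104. Such a peak from at least 1 library lay in 1185 of the domains, and the other 296 reached 10 kb only by joining shorter peaks. Both ERY libraries had a single peak of that length in 646 domains, both labelled iMK in 24 and all 4 in 6. The domains held 29.6% and 33.3% of all bases covered by H3K27ac in ERY and 11.6% and 11.1% in the libraries labelled iMK. The authors' fold of ChIP signal over control had a median of 4.18 and 3.18 for ERY peaks inside the domains, against 2.98 and 2.72 for ERY peaks elsewhere, and of 5.76 and 5.88 for iMK peaks inside, against 5.80 and 5.62 elsewhere. Within a domain the replicates were close. The shorter covered length was a median 0.923 of the longer between the ERY replicates (quartiles 0.857 and 0.967) and 0.80 between those labelled iMK (0.625 and 0.904). Across cell types this ratio had a median between 0.0900 and 0.127. It is 0 by definition in domains called in 1 cell type alone, and these lengths were used in the choice.

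The choice was repeated on 1 library of each cell type and the covered length read in the other pair, which the choice had not used. Of 1043 domains chosen on replicates 1, ERY replicate 2 was longer than iMK replicate 2 in 95.3%, with median covered lengths of 12600 and 2000 bp. Of 978 chosen on replicates 2, ERY replicate 1 was longer in 90.9%, at 12400 against 2000 bp. Where they were chosen, 1011 of the 1043 and 871 of the 978 were already longer in ERY, so these shares are in part set by the choice. Over all regions H3K27ac peaks covered 77.0 and 64.9 Mb in ERY and 42.9 and 53.2 Mb in the libraries labelled iMK. The few domains that were longer in iMK where they were chosen mostly kept that direction, in 30 of 31 and in 85 of 105. With 1 library per cell type left, there is no replicate error for these reads, and with 2 libraries against 2 an exact two-sided test has only 6 arrangements, too few to reach 0.05.

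The widest domain was the alpha globin cluster, 76000 bp on chromosome 11 (32226401 to 32302400, mm10). H3K27ac covered 75600 and 74800 bp of it in the ERY libraries and 1800 bp in each library labelled iMK, and ERY replicate 1 called it as 1 unbroken peak. It holds the start sites of Mpg, a DNA repair glycosylase, of Nprl3, whose introns carry the alpha globin enhancers, and of Hba-x, Hba-a1, Hbq1b, Hba-a2 and Hbq1a. Hba-x encodes an embryonic chain and Hba-a1 and Hba-a2 the adult alpha chains. Hba-a1 and Hba-a2 are near-identical copies, as are Hbq1a and Hbq1b. The study's general methods allowed reads that map to several places, but the tools named for these peaks differ from those methods. How such reads were treated here is unknown, so the peaks over each copy may not be separate.

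The next widest domains held none of the listed erythroid genes. The Gda domain (72600 bp, chromosome 19), over guanine deaminase, a purine-degrading enzyme, was covered over 66400 and 67600 bp in ERY and over 9800 and 21400 bp in the libraries labelled iMK. The domain of Alg9, a mannosyltransferase of N-glycan assembly, and Ppp2r1b, a scaffold subunit of protein phosphatase 2A (67800 bp), was covered over 66600 and 64000 bp against 4800 and 7600 bp. That of Agpat4, an acyltransferase of phospholipid synthesis (67600 bp), was covered over 65600 and 65200 bp against 8800 and 12800 bp. In all of these the ERY libraries lay close together and far above those labelled iMK. Trappc10, a subunit of a vesicle-tethering complex, lay in a domain of 61600 bp with 58400 and 54800 bp covered in ERY and 1800 and 3800 bp in iMK. The remaining domains among the 8 widest were a histone cluster, described below, and domains within Gramd4 and 21266 bp from Cd24a, a surface glycoprotein of early blood cells, neither of which holds a protein-coding start site.

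**Figure D2:**
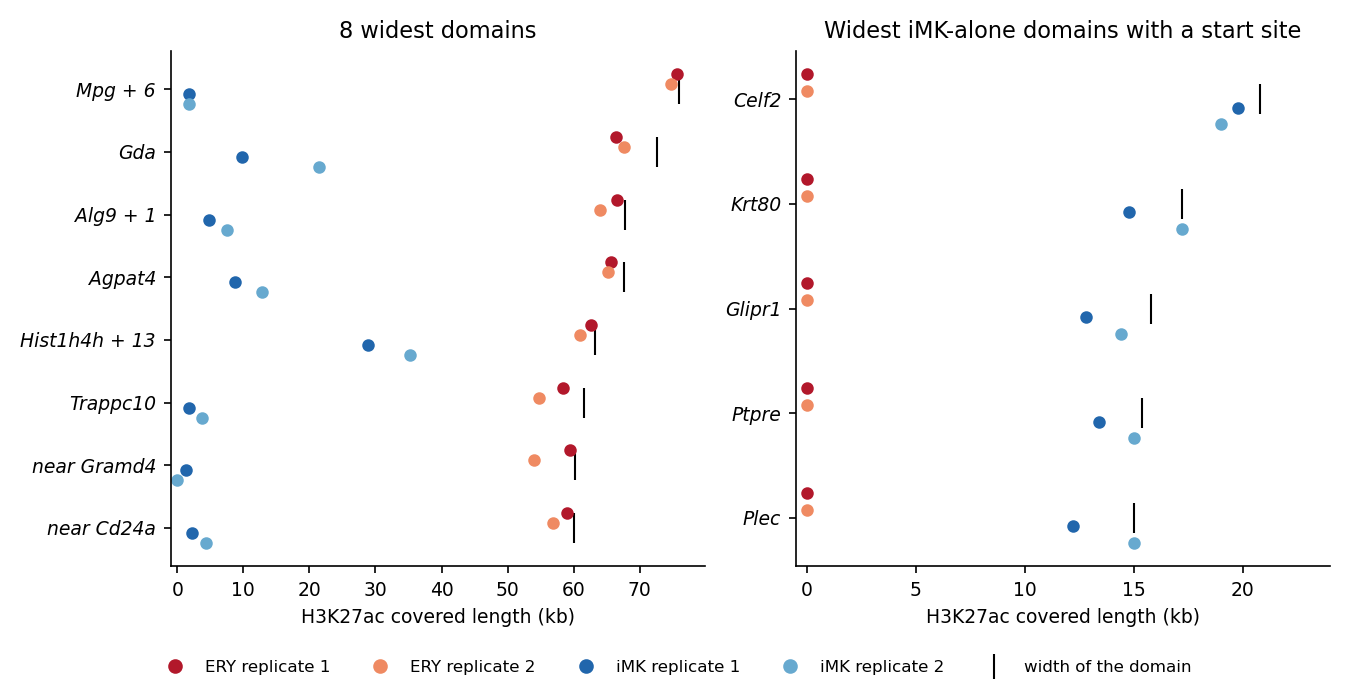
H3K27ac covered length (kb) in each H3K27ac library for the 8 widest domains (left) and for those of the 8 widest called in iMK alone that hold a protein-coding start site (right), each named by the first protein-coding gene that starts inside (with the number of further genes) or by the nearest one; each point is 1 library and the bar is the width of the domain. On the left the ERY points lie between 54.0 and 75.6 kb and the iMK points between 0 and 35.2 kb; on the right the ERY points are at 0 and the iMK points between 12.2 and 19.8 kb.

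Of domains with peaks in ERY alone, the widest held an annotated start site of Htt, the huntingtin gene, and of Msantd1 (59000 bp, with 56600 and 58000 bp covered). No H3K4me3 library had a peak in it. It was followed by Slc22a23, a solute carrier (55000 bp; 54200 and 52600 bp), and Col5a1, a fibrillar collagen chain (52200 bp; 52200 and 50400 bp). Domains within Mad1l1 (50000 bp) and Fig4 (47600 bp) lay 63666 and 73460 bp from the nearest start site. Cdkl1 (39800 bp), a kinase, Ank1 (38400 bp) and Spire1 (37600 bp), an actin nucleator, completed the 8 widest. No library labelled iMK had a peak in any of them by definition of the class.

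Domains called in iMK alone were narrower, with a median of 11300 bp and a maximum of 20800 bp, against 13400 and 59000 bp in ERY alone. The widest lay at Celf2, an RNA-binding splicing regulator (19800 and 19000 bp covered in iMK replicates 1 and 2). Next came Krt80, a keratin (14800 and 17200 bp), and among the others was a domain within Xylt1, a xylosyltransferase (14600 and 16600 bp). Those of Glipr1, Ptpre, a protein tyrosine phosphatase, and Plec, a cytoskeletal linker, had their start sites inside, at 12800 and 14400, 13400 and 15000, and 12200 and 15000 bp, while a domain within Mapkapk2, a stress-activated kinase, did not (11400 and 15200 bp). Of these genes none was on the platelet or megakaryocyte lists. iMK replicate 2 had 104 peaks of at least 10 kb against 32 in iMK replicate 1, and without it only 9 domains were called in iMK alone, instead of 56. Of 343 domains of 20 kb or more, 80 were ERY alone and 1 was iMK alone, and of 48 domains of 40 kb or more none was longer in both libraries labelled iMK.

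Among domains with a peak in all 4 libraries, 58 were longer in both libraries labelled iMK and 745 in both ERY libraries. Of these the 5 that leaned most to iMK were as follows. The domain nearest to Zfp36l2, an mRNA-decay factor, though 58147 bp away, had 6800 and 5200 bp covered in ERY and 26800 and 30800 bp in iMK. Prkcd, protein kinase C delta, had 2200 and 600 bp against 19200 and 21400 bp. Lcp1, the leukocyte actin bundler L-plastin, had 9200 and 6800 bp against 22400 bp in each. Zfp36, another mRNA-decay factor, shares its domain with the exchange factor Plekhg2 (3600 and 1400 bp against 15600 and 16200 bp). The fifth domain was far from any protein-coding start site, 105440 bp from Tomm20.

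The domains best covered in all 4 libraries at once were led by the histone cluster, whose lowest covered length was 28800 bp. Tbc1d2b, a RAB GTPase-activating protein, followed with 44600 and 40400 bp in ERY and 30200 and 28800 bp in iMK. Klf13, a Krüppel-like factor, had 27800 and 25600 bp against 23600 and 23800 bp, the closest of the 8 between cell types. Plekho2, the domain of Prr15l and Sp2, Emilin2, Fam117a and Dennd4a made up the rest, with lowest covered lengths of 23000 down to 16200 bp.

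Listed erythroid genes were frequent in the wide domains. Of 21911 protein-coding gene names, 1158 (5.29%) had a start site in a wide domain. A start site is that of any annotated transcript. A domain may therefore hold an internal start and leave out the outermost one, as at Ank1, Bcl11a, Sox6, Ube2o and Uros. Of the 23 genes listed for globin and heme synthesis 17 did, of 28 for the red cell membrane and surface 20, of 18 erythroid transcription factors 15, and of 24 genes for erythroid remodelling and survival 14. In 65 of these 66 genes the domain was longer in both ERY libraries than in both labelled iMK, as were 1315 of all 1481 domains. Some of these genes share a domain, such as those of the alpha globin cluster. These lists were made with earlier results of these data known, and the counts describe them without a test.

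**Figure D3:**
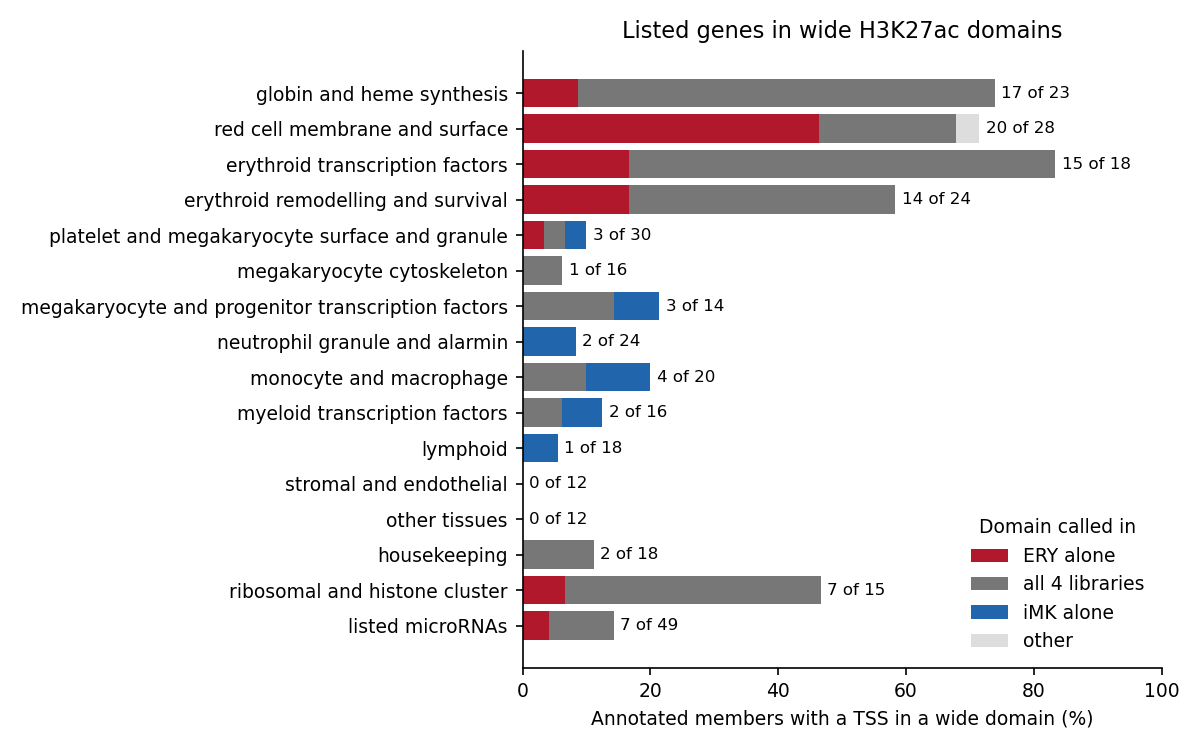
Share of the annotated members of each gene list (%) with a start site in a wide domain, coloured by the libraries that called the domain, with the counts at the bar ends. The 4 erythroid lists lie between 58.3% and 83.3%, and the 3 platelet and megakaryocyte lists between 6.25% and 21.4%.

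Globin and heme genes outside the alpha cluster, named after their values were seen, included Slc25a37, the mitochondrial iron importer mitoferrin, Steap3, a ferrireductase, and Fech, the last enzyme of heme synthesis. The Slc25a37 domain (58000 bp, chromosome 14) was covered over 56200 bp in each ERY library and over 4600 and 4000 bp in the libraries labelled iMK. Its sequence is largely repeated in a domain of the gene model Gm16867 on the same chromosome: 98.2% of its 50-base words occur there and 95.9% of the words of that domain occur in it, so these 2 domains may count the same reads. Fech had 25000 and 24400 bp in ERY against 1600 and 1200 bp in iMK. Of the 17 genes 2 lay in ERY-alone domains, beside 205 of all 1158 protein-coding genes in wide domains. These were Uros, another heme enzyme (12600 bp in each ERY library), and Hbb-bt, an adult beta globin (10200 and 9600 bp).

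Membrane genes were the group most often called in ERY alone, in 13 of the 20, beside 205 of all 1158 protein-coding genes in wide domains. The widest was at Aqp1, a water channel (51800 bp; 50600 and 50400 bp in ERY, 400 and 0 bp in iMK), followed by Hemgn, an erythroid nuclear protein (38800 and 37600 bp against 3800 bp in each). Ank1 had 37800 and 37600 bp and Slc4a1, the anion exchanger band 3, had 27400 and 22000 bp in ERY, with no peak in iMK. Add1, an adducin subunit of the membrane skeleton (27200 and 28200 bp against 2800 and 2400 bp), and Gypc, a glycophorin (28800 and 29600 bp against 7200 and 3000 bp), had short peaks in iMK. In all 20 the ERY libraries lay above those labelled iMK without overlap, as in 1315 of all 1481 domains.

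Of the 15 transcription factor genes 12 lay in domains with peaks in all 4 libraries, close to the share of all genes in wide domains (903 of 1158). The widest lay at Zfpm1, the GATA1 cofactor FOG1, with 51600 and 50800 bp in ERY and 800 and 1000 bp in iMK. Foxo3, a factor of erythroid maturation, had 38600 and 39200 bp against 9200 and 11600 bp. Bcl11a, a repressor of fetal globin genes in human, had 26600 and 27600 bp against 5600 and 9000 bp, and E2f2, a cell cycle factor, 25000 and 24200 bp against 10800 and 11800 bp. Gfi1b (29800 and 29600 bp), Gata1, the master erythroid factor (12800 and 13400 bp), and Sox6, a partner of BCL11A (10400 and 9400 bp), had no peak in iMK. The exception to the ERY direction was Zbtb7a, whose ERY libraries had 11400 and 10800 bp and those labelled iMK 10800 and 10600 bp, so that the cell types touched at 10800 bp.

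Among remodelling genes, Ccnd3, the cyclin that sets the number of terminal divisions, had the widest domain (40600 and 37600 bp against 10000 and 12400 bp). Ube2o, a ubiquitin enzyme that clears ribosomes from maturing red cells, had 25200 and 22000 bp and no peak in iMK. Its domain leaves out the outermost start site, so this does not describe the rest of the gene. Fbxo7, a ubiquitin ligase subunit, had 19200 and 22200 bp against 1600 and 1400 bp, and Btg2, an antiproliferative gene, 20200 bp in each against 2600 and 4200 bp. Prdx2, a red cell peroxidase, shared a domain with Junb, an AP-1 factor on the myeloid list, with 18600 and 19200 bp in ERY and 14200 and 14000 bp in iMK. Pim1, a kinase downstream of erythropoietin, had 14800 and 14000 bp against 8000 and 11200 bp.

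Few of the listed megakaryocyte genes lay in wide domains, with 1 to 3 genes a list, so the shares stand as counts only. Of 30 platelet and megakaryocyte surface and granule genes 3 were, of 16 megakaryocyte cytoskeleton genes 1, and of 14 megakaryocyte and progenitor transcription factors 3 (10%, 6.25% and 21.4%, beside 5.29% of all protein-coding genes). Of these, Plek, the platelet protein kinase C substrate pleckstrin (9400 and 10200 bp in iMK), and Etv6, an ETS repressor (11400 and 12200 bp), were in iMK-alone domains. Myh9, the nonmuscle myosin of platelets, had a shared domain that was longer in iMK, with 11000 and 9200 bp in ERY and 12200 and 14800 bp in iMK. Vwf, which encodes von Willebrand factor of platelet granules and endothelium, went the other way, with 16000 and 15800 bp in ERY and no peak in iMK. Its domain lies inside the gene, leaves out the outermost start site and had no H3K4me3 peak. Elsewhere within 10 kb of Vwf the libraries labelled iMK had short peaks (1.25% and 1.63% of the locus). Tbxas1, thromboxane synthase, also at an internal start (25800 and 22200 bp against 2400 and 3000 bp), and Runx1 (14000 and 12400 bp against 6200 and 9000 bp) were longer in ERY too. For Lyl1, a relative of TAL1, the cell types overlapped (11000 and 10400 bp, against 9800 and 10400 bp).

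Of the listed white blood cell genes in wide domains, 6 of 9 lay in domains called in iMK alone, beside 39 of all 1158 protein-coding genes there. The shares inside were 8.33% of 24 neutrophil genes, 20% of 20 monocyte and macrophage genes, 2 of 16 myeloid transcription factors and 5.56% of 18 lymphoid genes, beside 5.29% of all protein-coding genes. The 2 neutrophil genes were Ncf1 (10600 and 14600 bp in iMK) and Ngp, neutrophilic granule protein (5800 and 10400 bp), neither with a peak in ERY. The 4 monocyte and macrophage genes were Lyz2, lysozyme (9000 and 10200 bp in iMK), and Laptm5, a lysosomal membrane protein (10000 and 12400 bp), in iMK alone, and the cathepsin genes Ctss and Ctsb in shared domains that were longer in ERY (18800 and 22200 against 7000 and 9400 bp, and 15600 and 14800 against 7200 and 7600 bp). Spi1 was covered over 12000 bp in each library labelled iMK and Ltb, the lymphoid cytokine lymphotoxin beta, over 10800 and 11000 bp, with no peak in ERY. Marker loci of neutrophils and of monocytes and macrophages were also more covered in the libraries labelled iMK, as given above, and what other cells in the sort contribute to these domains was not tested. None of 12 stromal and endothelial genes and none of 12 genes of other tissues had a start site in a wide domain, and 2 of 18 housekeeping genes did, Ywhaz and Actb.

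Clustered histone genes filled the 2 domains with most genes. The domain of 63200 bp on chromosome 13 (23525601 to 23588800) holds the start sites of 14 genes, from Hist1h4h on, and was covered over 62600 and 61000 bp in ERY and over 28800 and 35200 bp in iMK. A second one of 33000 bp holds 9, with Hist1h1c, Hist1h3a and Hist1h4a among them (33000 and 30400 bp against 16000 and 19000 bp). These replication-dependent genes are intronless near-copies of each other, and shared reads between them cannot be told apart here. After the alpha globin domain with 7 came the Nubp2 domain and the Tusc2 domain with 6 each, the second of which holds the hyaluronidase genes Hyal1, Hyal2 and Hyal3. Only 17 domains held 4 or more genes, 205 held 2 or more and 726 held exactly 1.

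MicroRNA genes were also found in wide domains. Of 49 listed microRNA genes in the annotation 7 lay inside, and the 6 of them that encode a mature microRNA (all but the host transcript Mir142hg) matched RefSeq entries of GRCm38.p6. Of 1005 RefSeq hairpins in all, 37 lay in wide domains. The mature sequence of 1 arm each is shown with the seed, bases 2 to 8, in capitals, since the seed sets which messages a microRNA pairs with.
miR-144-3p: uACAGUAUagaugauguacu
miR-451a: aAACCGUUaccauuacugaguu
miR-142a-3p: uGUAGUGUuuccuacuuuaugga
miR-210-3p: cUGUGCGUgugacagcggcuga
miR-21a-5p: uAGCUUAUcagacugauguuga
All 10 mature sequences of these genes had different seeds. Mir144 and Mir451a, made from 1 transcript that is abundant in red cell precursors, lay together in an ERY-alone domain of 18800 bp on chromosome 11, covered over 18800 and 18200 bp. Mir210, known for its response to low oxygen, had 19600 and 18600 bp in ERY and 1000 bp in each library labelled iMK. Mir142 and Mir142b, from a locus active in most blood cells, had 15800 and 14200 bp against 11600 and 12200 bp. Mir21a, a microRNA of many activated and growing cells, was the exception and was longer in iMK, with 8400 and 9400 bp in ERY and 12200 and 13800 bp in iMK.

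A protein-coding start site lay in 931 of the 1481 domains (62.9%), beside 28% of all joined regions and 26.7% of the narrower ones. A longer region has more room to hold a start site, and this share grew with width, from 51.1% of regions between 5000 and 10000 bp to 59.6% between 10000 and 20000 bp and 80.8% at 30000 bp or more. Per Mb the domains held fewer genes than the narrower regions, 45.5 against 103. A start site was present in 78.7% of the domains called in all 4 libraries, in 66.1% of those in iMK alone and in 39.1% of those in ERY alone. Of the 550 domains with none, 298 were ERY alone, 365 touched the body of a protein-coding gene, 83 held the start site of a long noncoding RNA and 93 were more than 50 kb from any protein-coding start site. After the domains in Gramd4 and near Cd24a, the widest of these lay within Mvb12b (60000 bp) and Tet3 (52000 bp), and then Mad1l1.

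In domains with exactly 1 gene more of the length lay downstream of the start site used as anchor. Counted from the most upstream start site inside, the median domain reached 3614.5 bp upstream and 10008.5 bp downstream, and it was longer downstream in 524 of 726. Where a gene has several start sites inside, this anchor itself puts more of the domain downstream, so the direction is in part set by it. It covered a median 30.1% of the gene body. ERY-alone domains were more even, with medians of 5542 and 8220 bp in 176 domains, and those in iMK alone had 1818 and 9101 bp in 35. In the 486 domains called in all 4 libraries the start site itself was covered about as often in both cell types, in 94.2% and 88.5% of domains in ERY and in 86.2% and 87.4% in the libraries labelled iMK. At 5000 bp into the gene the shares were 82.9% and 80.0% in ERY and 20.4% and 27.6% in iMK, and at 10000 bp 60.9% and 57.6% against 14.2% and 18.3%. This difference is in part set by the choice. Of all 848 shared domains 395 had a single peak of 10 kb or more in both ERY libraries and 20 in both labelled iMK. In the 35 iMK-alone domains the libraries labelled iMK stood at 62.9% and 85.7% at 5000 bp.

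**Figure D4:**
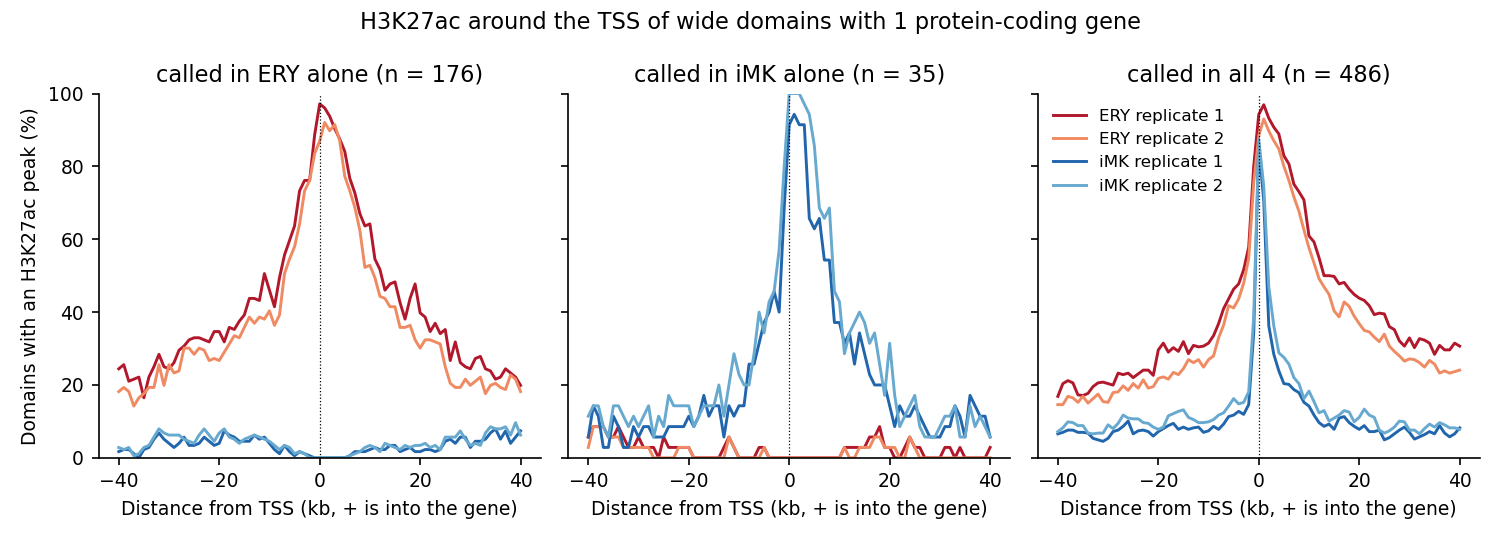
Share of wide domains with 1 protein-coding gene (%) in which each H3K27ac library had a peak at a given distance from the start site (kb, positive into the gene), for domains called in ERY alone, in iMK alone and in all 4. In the right panel all 4 lines reach 86.2% to 94.2% at the start site, and 5 kb into the gene the ERY lines stand at 82.9% and 80.0% and the iMK lines at 20.4% and 27.6%.

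H3K4me3, measured in other libraries that the choice did not use, was tested over all joined regions. The percent of each region covered by H3K4me3 peaks was compared between ERY and iMK with limma's moderated test in the 12100 regions covered in at least 1 of 4 libraries, 919 of them wide domains, with Benjamini-Hochberg adjustment at 0.05. No wide domain and no region passed in either direction (0% of all tested regions). At an unadjusted limma p under 0.05 there were 0 wide domains higher in ERY and 2 higher in iMK. The median difference, ERY minus iMK, was 1.85 percentage points over the wide domains and -20.8 over all regions tested, and with quantile normalization 16.5 and 2.19, so its sign over all regions depends on the scaling. The libraries labelled iMK differed for this mark, covering 11.3 Mb in replicate 1 and 33.8 Mb in replicate 2, against 16.0 and 9.02 Mb in ERY. Without iMK replicate 1, limma called 16 of 919 wide domains higher in ERY (beside 0.397% of all 12078 regions tested). It called 138 of the 919 higher in iMK (beside 37.1% of all regions tested). Without iMK replicate 2 it called 3 of 857 wide domains higher in ERY (beside 1.16% of all 9085 regions tested). It called 23 of the 857 higher in iMK (beside 12.1%). Both fits leave 1 library labelled iMK, which is assumed to vary like the ERY pair.

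The largest H3K4me3 differences between libraries that did not overlap are given as values, with limma's standard error (SE) over 2 libraries per cell type. H3K4me3 covered 0 bp of the Tnrc18 domain (10000 bp) in ERY and 9000 and 10000 bp in iMK, a difference of -95.0 percentage points, ERY minus iMK (SE 15.0, adjusted p = 0.255 by limma). Tnrc18 encodes a chromatin protein. Zbtb7b, a zinc finger factor of T cells, had 1200 and 600 bp in ERY against 8000 and 12800 bp, and Lyz2 0 bp in both against 3200 and 9400 bp (differences of -68.8 and -61.8 points). Zfp516 and the trio Evi2, Evi2a and Evi2b were next. On the other side stood Sox6 (6200 and 3600 bp in ERY, 0 in iMK; 47.1 points, SE 23.0, adjusted p = 0.626 by limma), Btnl10, a butyrophilin-like gene (6000 and 5400 bp against 0), and Rhd, the Rhesus blood group protein (7000 and 4600 bp against 0). Klf3, a Krüppel-like repressor of late erythroid cells, had 12200 and 6400 bp against 2000 and 5000 bp, and Nxpe2 5600 and 4800 bp against 0. In the alpha globin domain H3K4me3 covered 12800 and 3200 bp in ERY and 1000 and 2400 bp in iMK, which differed by less than the spread between the ERY libraries.

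H3K4me3 peaks found in both replicates of 1 cell type and in neither of the other lay on the side of the H3K27ac calls. Of the 489 ERY-alone domains, 62 had an H3K4me3 peak in both ERY libraries and in neither library labelled iMK, and 0 had the reverse. Of the 56 iMK-alone domains, 27 had it in both libraries labelled iMK and neither ERY library, and 0 had the reverse. Over all 42199 regions these patterns were found in 0.344% and 2.61%. Covered H3K4me3 length in both ERY libraries exceeded that in both labelled iMK in 198 of the 1481 domains (0.905% of all regions), and the reverse held in 73 (5.26%). The count of 62 became 109 without ERY replicate 2, in which ERY replicate 1 alone stood for ERY, and the count of 27 became 11 when only H3K4me3 peaks with a fold of 3 or more were used, both alternatives chosen after seeing the data.

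**Figure D5:**
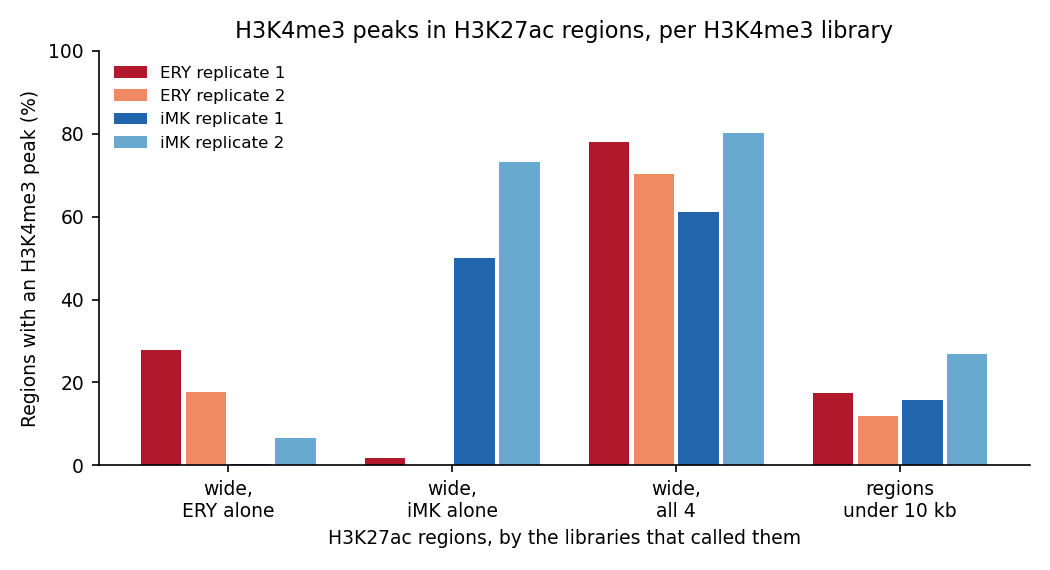
Share of H3K27ac regions (%) with an H3K4me3 peak in each of the 4 H3K4me3 libraries, for wide domains called in ERY alone, in iMK alone and in all 4, and for all joined regions under 10 kb; each bar is 1 library. ERY-alone domains stand at 27.8% and 17.8% in ERY against 0.204% and 6.54% in iMK, and iMK-alone domains at 1.79% and 0% against 50% and 73.2%.

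Wide domains had an H3K4me3 peak more often than narrower regions: 562 of 1481 (37.9%) had none in any of the 4 libraries, beside 72.5% of regions under 10 kb, which have less room for one. Those without included 347 of the 489 ERY-alone domains and 137 of the 848 shared ones. Such domains include those of Gda and Agpat4, which hold a protein-coding start site. A peak list shows only what passed the authors' threshold, so a domain with no listed peak may still carry the mark. Of the 931 domains with a start site 141 (15.1%) had none, beside 18.2% of the narrower regions with a start site, and of the 550 without one 421 (76.5%), beside 92.3%. A peak was listed in 17.3% and 7.09% of these 550 in ERY replicates 1 and 2 and in 2% and 11.1% in the iMK pair.

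In bulk the domains were close to the narrower regions in GC content and poorer in CpG. GC content was 46.9% over the wide domains and 47.3% over the others, and the observed over expected CpG ratio was 0.246 against 0.310. By class this ratio was 0.268 against 0.478 in shared regions, 0.237 against 0.292 in iMK alone and 0.205 against 0.201 in ERY alone. Introns made up 64.0% of the bases of the domains and exons 9.60%, beside 55.8% and 11.5% in the narrower regions. AGATAA or TGATAA occurred 11.3 times per 10 kb in ERY-alone domains, 8.57 in iMK-alone domains and 9.94 in shared ones. GAGGAA or ACTTCC occurred 16.7, 20.6 and 17.3 times. In the narrower regions the GATA letters occurred 12.8 times per 10 kb in ERY alone, 9.20 in iMK alone and 8.98 in shared regions, so that the shared class stood lowest there, and the ETS and PU.1 letters 16.9, 22.2 and 17.5 times. All 1481 domains held at least 1 match of each family, as did 79.4% and 92.1% of the narrower regions, which are shorter. These rates are descriptions of regions, which share base composition, and no factor's binding was measured.

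Wide domains were spread over the autosomes and rare on chromosome X. They made up between 2.70% (chromosome 16) and 4.16% (chromosome 11, with 126 domains) of the joined regions of an autosome. On chromosome X there were 5 among 613 regions (0.816%), 1 of them at Gata1, and on chromosome Y none among 30.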

How the data were processed

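ChIP-seq of H3K27ac and H3K4me3 was analysed in 8 libraries, 2 for each mark and cell type, grouped by the submitters' labels; 10 input libraries were not used here. Replicate numbers follow the order of the accessions and pair no samples. By the study's methods replicates may be separate sorts of the same animals, so p-values measure only the spread between libraries. Peaks were called per library by the authors. Tools listed in the submitters' processing notes are Bowtie 1.0.0 and SICER 1.1, with build mm10 and no steps assigned. The paper's ChIP-seq methods name another Bowtie version and MACS. All peak edges were multiples of 200 bp. Each deposited peak has the authors' fold (a ratio of ChIP to control signal), p-value and q-value, which here only ranked or filtered peaks (every q-value was under 0.01). Read depth is unknown from these lists.

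Peaks on the named chromosomes were joined where they shared 1 bp, and covered bases per region, genes (GENCODE vM21, 21938 protein-coding models) and GRCm38 sequence were read with Python 3.11.15 (pandas 2.3.3). Edges were taken as counted from 0 and are printed counted from 1. A start site was that of any annotated transcript of a gene. H3K4me3 coverage (percent of a region) was compared with limma 3.58.1 in R 4.3.3, with a trend and no covariates, over regions covered in at least 1 of 4 libraries, and the test was tried on simulated data. The domains and the 16 gene lists (337 of 338 names found, not Mir486b) were chosen with earlier results of these data known. Named by rule were the 8 widest domains, the 8 widest of ERY alone and of iMK alone, the 8 best covered in all 4, the 5 at each end of ERY minus iMK among domains called in all 4, the 5 with most genes, the 5 widest with no start site, up to 6 members a list by domain width, and the 5 largest H3K4me3 differences each way. Other listed genes were named after their values were seen. A few genes that meet the rule are not reported here. Alternatives changed the width, joining, peak threshold, list length, libraries and gene assignment.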

Additional observations from a re-analysis of the deposited data

How the results depend on the processing

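The counts of wide domains depend on the threshold that defines them. At 8 kb there were 2239 domains (764 ERY alone, 149 iMK alone), at a threshold between 10 and 20 kb 950 (299 and 15), and at 20 kb 343 (80, 1, and 239 in all 4). Joining across gaps of up to 1 kb gave 2230, with 158 in iMK alone and 1315 in all 4. Joining only bases covered by at least 2 of 4 libraries gave 716, with 251, 4 and 426. A fold of 3 or more, lists of the same length and a call at 10% covered kept the count and the classes within 1.5 times. ERY alone outnumbered iMK alone in each of these. Leaving out each H3K27ac library gave 1022 to 1437 domains, 333 to 541 in ERY alone, 577 to 878 in all 4 and 9 (without iMK replicate 2) to 61 in iMK alone. The share with ERY longer was 90.9% when chosen on replicates 2. Gene body overlap in place of a start site raised the share of domains with a gene to 87.5%, and at 20 kb 44 in place of 98 listed genes remained.

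The H3K4me3 test called 0 wide domains under the alternatives that changed filter, scale, normalization, list length or fold (30 to 176 higher in ERY and 1 to 46 higher in iMK at an unadjusted limma p under 0.05), while leaving out libraries gave 0 to 16 higher in ERY and 0 to 138 higher in iMK; the cause was not tested. The fit with no filter could not be fitted, since most regions then have no variance. ERY-alone domains with H3K4me3 in ERY alone numbered 62 to 109 without single H3K4me3 libraries, and iMK-alone domains with it in iMK alone 27 to 40, or 11 at a fold of 3. No paired analysis was possible because the labels number no replicates. Peak lists without read depth limit all lengths: a shallower library can give shorter or fewer peaks, and this was not tested.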
